A study of Homo sapiens with 26 samples.

Results

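The genes described here are 47 interferon stimulated genes, a list of genes whose transcription is raised by type I interferon, taken by name out of the 58592 genes to which the reads were assigned. All 47 were found. Their level was read in OCI-Ly7 and SUDHL4, 2 established human diffuse large B cell lymphoma lines of germinal centre B cell type, from RNA sequencing of cells in which POU2F2 or POU2AF1 had been repressed. POU2F2 encodes the octamer-binding transcription factor Oct-2, and POU2AF1 encodes its B cell coactivator OCA-B. Every group carried the same repressor, a catalytically dead Cas9 joined to blue fluorescent protein and the KRAB domain, delivered by lentivirus under the SFFV promoter, so the controls were transduced cells too. The groups differed in the guide RNA, also delivered by lentivirus: against POU2F2, against POU2AF1, or non-targeting in the control. OCI-Ly7 was grown in IMDM and SUDHL4 in RPMI, with fetal bovine serum at a higher share for OCI-Ly7, so that line and medium cannot be told apart. Polyadenylated RNA was extracted with Trizol and sequenced as stranded paired-end libraries.

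Type I interferons bind the receptor formed by IFNAR1 and IFNAR2, whose kinases JAK1 and TYK2 phosphorylate STAT proteins, STAT2 among them. With IRF9 these form the factor ISGF3, which binds the interferon stimulated response element (ISRE) in the promoters of the genes listed here. Many of the encoded proteins bind viral RNA, cut it, block virus entry or feed back on the pathway itself, and cells without infection keep part of the set at a basal level. Oct-2 and OCA-B act together at octamer sites in B cells.

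The ISRE is shown because most of the promoters searched held its core. Promoters of 37 of the 47 genes were found in the RefSeq table (GRCh38.p14, 250 bases before to 50 after the start). The core searched was GAAANNGAAA on both strands, without regard to overlap with other motifs, and 26 of the 37 held it (70.3%), against 3.57% of all 35116 promoters of that length. More than 1 match was found in 15 of them. The windows below are 30 bases, read 5′ to 3′ along the gene's own strand, and belong to genes on which the results turn. The core match nearest the start is in capitals (its reverse complement for IFIT3, IFIT1 and IFI44). Other matches are not marked, among them 1 in ISG15 that overlaps the marked match.
ISG15, chr1:1013380-1013409, plus strand: tcgggaaaggGAAACCGAAActgaagccaa
IFI6, chr1:27672266-27672295, minus strand: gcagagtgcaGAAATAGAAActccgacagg
IFI44L, chr1:78620365-78620394, plus strand: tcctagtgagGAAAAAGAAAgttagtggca
IFI44, chr1:78649761-78649790, plus strand: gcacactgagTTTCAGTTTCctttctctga
IFIH1, chr2:162318686-162318715, minus strand: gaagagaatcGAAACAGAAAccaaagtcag
DTX3L, chr3:122564322-122564351, plus strand: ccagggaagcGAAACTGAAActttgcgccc
PARP14, chr3:122680800-122680829, plus strand: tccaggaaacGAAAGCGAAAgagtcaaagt
RTP4, chr3:187368357-187368386, plus strand: accgaacaccGAAACTGAAActgtttgtct
IFIT3, chr10:89327865-89327894, plus strand: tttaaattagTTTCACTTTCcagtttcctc
IFIT1, chr10:89392510-89392539, plus strand: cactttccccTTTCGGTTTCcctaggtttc
ISG20, chr15:88638937-88638966, plus strand: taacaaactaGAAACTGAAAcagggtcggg
These cores lay between 122 bases (IFIT3) and 6 bases (DTX3L) upstream of the annotated start. The octamer ATGCAAAT, searched in the same way, was found in none of the 37 and in 1.77% of all promoters. A match is a description of the letters in this window only. No entry was matched for IFIT2, DHX58, OAS2, OASL, MX2, UBA7, USP18, IFITM2, LY6E and TRIM22.

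Several of the genes are neighbours: 23 of the 47 had another of the list within 200 kb. These are IFIT1, IFIT2, IFIT3 and IFIT5 on chromosome 10, OAS1, OAS2 and OAS3 on chromosome 12, MX1 and MX2 on chromosome 21, IFI44 and IFI44L on chromosome 1, HERC5 and HERC6 on chromosome 4, IFITM1, IFITM2 and IFITM3 on chromosome 11, RSAD2 and CMPK2 on chromosome 2, PARP9, DTX3L and PARP14 on chromosome 3, and SAMD9 and SAMD9L on chromosome 7. Reads from sequence shared with other genes could be split between them. Of its 31-base words, IFITM2 shared 45.2% with transcripts of other genes, IFITM3 36.4%, IFITM1 35.3%, USP18 30.8% and TRIM22 16.2%. The levels of these genes are therefore uncertain.

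The 26 deposited files came to 22 libraries, because files that differed by no more than sampling noise, or repeated a sum of others, were counted as 1. The OCI-Ly7 controls came to 4 libraries (replicate numbers 1, 7, 8 and 9), against 6 of POU2AF1 knockdown and 8 of POU2F2 knockdown. For SUDHL4 there was a single library of control, a single library of POU2AF1 knockdown, and 2 of POU2F2 knockdown. By label all SUDHL4 libraries were of batch 1. In OCI-Ly7, batches 1 and 2 held 1 and 3 controls, 4 and 2 libraries of POU2AF1 knockdown, and 0 and 8 of POU2F2 knockdown. A label of 48 h stood on replicate 3 of each OCI-Ly7 knockdown and on a control file left out as a repeat. The other files have no time label. The labels do not say that replicates were separate cultures, so the p-values rest on the spread of these libraries alone, which may be technical. The files held 24959865 to 53155548 estimated reads. In SUDHL4 the targeted gene was lower in each knockdown: the log2 change was -2.45 ± 0.13 for POU2AF1 (± SE, adjusted p = 8.11e-17) and -2.71 ± 0.13 for POU2F2 (adjusted p = 1.12e-07). In OCI-Ly7 POU2AF1 changed by -2.99 ± 0.20 (adjusted p = 2.31e-07) and POU2F2 by -1.54 ± 0.24, which missed the threshold (adjusted p = 0.0989). Of the OCI-Ly7 libraries, POU2AF1 knockdown replicate 1 stood apart with 25.8% of its reads in mitochondrial genes and 10 listed genes over 2-fold above the control mean. POU2F2 knockdown replicate 1, the only library of its series mark, had 7 such genes, and the other OCI-Ly7 knockdown libraries had 0 to 3. B cell markers were present in every group.

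At baseline the lines shared most of the abundant members and differed in many others. Of the 11 genes at 10 TPM or more in the SUDHL4 control, 10 were also at 10 TPM or more in the OCI-Ly7 controls, and EIF2AK2 was not. On the TPM scale, which corrects for transcript length, the OCI-Ly7 controls had a median of 3.17 over the 47 genes and the SUDHL4 control one of 0.787. Of the genes in OCI-Ly7, 3 stood at 100 TPM or more, 9 at 10 to 100, 16 at 1 to 10 and 19 below 1, against 2, 9, 12 and 24 in SUDHL4. The highest in OCI-Ly7 were ISG20, an RNA exonuclease, at 243 TPM (range 232 to 276 over the 4 control libraries), IFI16, a DNA sensor, at 221 (196 to 226), and BST2, or tetherin, which holds budding virus at the cell surface, at 137 (107 to 168). Next came the RNA-editing enzyme ADAR at 81.0 (70.8 to 84.8), and the oligoadenylate synthetases OAS1 at 55.4 (41.2 to 66.2) and OAS2 at 46.6 (31.9 to 48.9). Over the control libraries each of the first 5 ranges lay above the next without overlap, except that OAS1 overlapped with OAS2. In the 1 SUDHL4 control library the order was IFITM2, a membrane protein that restricts virus fusion, at 185 TPM, BST2 at 103, ADAR at 94.2, IFI16 at 68.9, the ubiquitin-like protein ISG15 at 56.9 and TRIM22, a ubiquitin ligase, at 46.2. The order of neighbours there has no replicate check.

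Of the 46 genes tested between the controls, 18 were called higher in OCI-Ly7, where 11.0% of all genes tested were, and 7 higher in SUDHL4, where 12.5% were. The remaining gene, DDX60, was too low to be tested. The SUDHL4 side of this test is 1 library, assumed to vary like the replicated groups. The difference of MX1, a dynamin-like GTPase that traps viral particles, was 6.71 ± 0.66 (log2 OCI-Ly7 minus SUDHL4 ± SE, adjusted p = 2.86e-07). That of IFIH1, the RNA sensor MDA5, was 4.59 ± 0.27 (adjusted p = 4.32e-10), and that of ISG20 3.16 ± 0.26 (adjusted p = 2.39e-08). PARP14, an ADP-ribosyltransferase, differed by 5.43 ± 0.76 (adjusted p = 2.46e-05) and SAMD9L, a restriction factor, by 5.33 ± 0.78 (adjusted p = 4.03e-05). Also higher in OCI-Ly7 were OAS3, LY6E, IFITM1, IFIT3, IFIT5, USP18, MX2, PLSCR1, IFI35, DHX58, OAS1, IFI16 and PARP12, at log2 differences of 1.23 (PARP12) to 6.79 (OAS3).
Of the latter, LY6E had no read in the SUDHL4 control, IFIT3 and IFIT5 had 1 and USP18 had 2, so the size of their differences is uncertain.
Higher in SUDHL4 were RSAD2, or viperin, at 0.916 CPM (read counts scaled to a common library size) against 0, 0.0335, 0 and 0 in the OCI-Ly7 controls, and its head-to-head neighbour CMPK2, a nucleotide kinase, at 2.73 against 0.0568, 0, 0 and 0. The others, with the same log2 difference, were IFITM2 (-4.11 ± 0.82), EPSTI1 (-3.98 ± 0.53), the RNA-activated kinase gene EIF2AK2 (-2.58 ± 0.49), PARP9 (-2.31 ± 0.57) and DTX3L (-2.25 ± 0.45), the last pair being partners in one ubiquitin ligase complex. Within batch 1 alone, with 1 control library of each line, the median log2 difference of the 46 genes was 0.929, against 0.0043 over all genes tested.

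**Figure D1:**
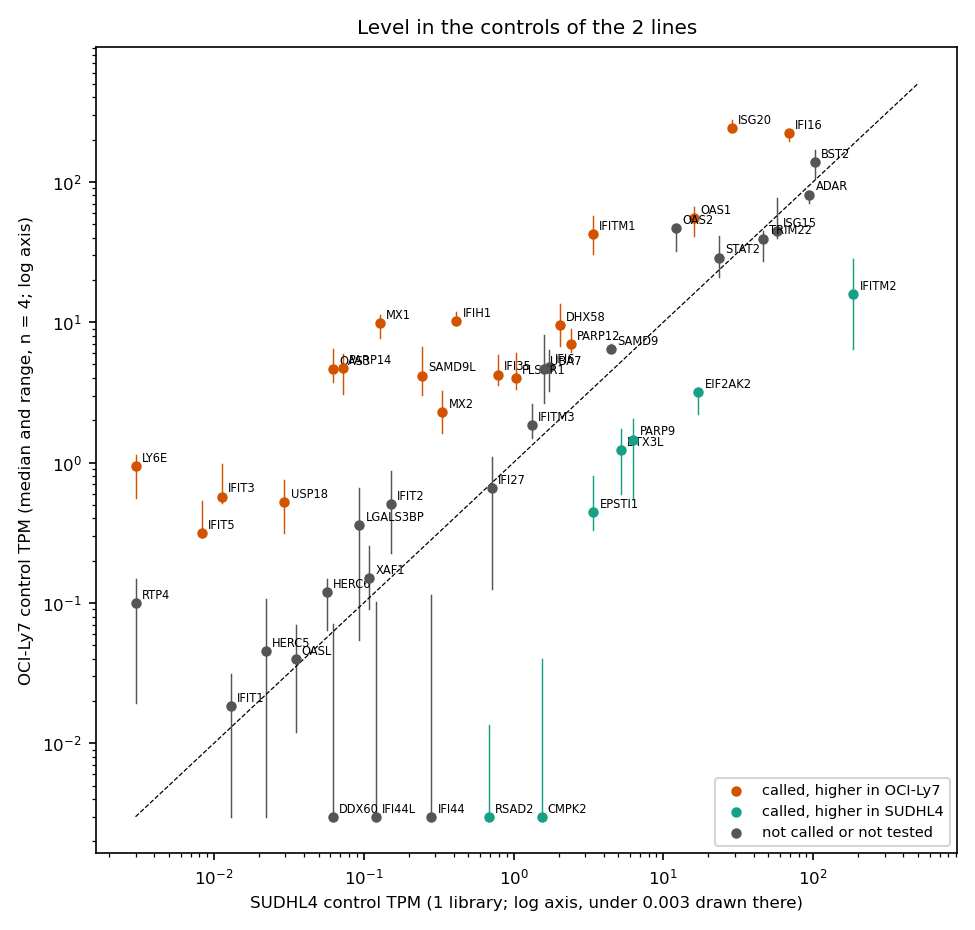
Level of each interferon stimulated gene in the controls, in TPM on log axes: SUDHL4 across (1 library) and OCI-Ly7 up (median and range of 4 libraries), with values under 0.003 drawn at 0.003 and equal levels on the dashed line. Genes called higher in OCI-Ly7 (18, such as MX1 and IFIH1) lie above the line, and the 7 called higher in SUDHL4 (such as RSAD2 and IFITM2) below it.

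In SUDHL4, repression of POU2AF1 went with a rise of most of the set. In the fit of that line 35 of the 47 genes rose and none fell, where 18.0% of all genes tested rose. The median log2 change of the 42 genes tested was 1.87, against 0.01 over all genes tested. The POU2AF1 knockdown library lay above the control in 44 of the 47 genes, counted whatever their reads. Of all genes with 10 or more reads in a library of the line, 49.8% did. The comparison is of 1 library with 1. Only the 2 POU2F2 knockdown libraries give a spread (1 residual degree of freedom), and the single libraries are assumed to vary like them. The test drew the spread of each gene strongly towards that of all genes (33 prior degrees of freedom, the median over genes). Its small adjusted p-values therefore rest on that pooled spread, not on replicates of each gene. In a fit of all 22 libraries, which takes its spread from OCI-Ly7, 12 genes remained called (IFI35, IFI44L, IFI6, IFIH1, IFIT1, IFIT2, IFIT3, ISG20, MX2, PARP12, PARP14 and SAMD9L), where 1.11% of all genes rose. With the series mark as a block in that fit, 25 were called, where 7.04% of all genes rose. In bulk RNA, a change in the level per cell and a change in which cells are present cannot be told apart.

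**Figure D2:**
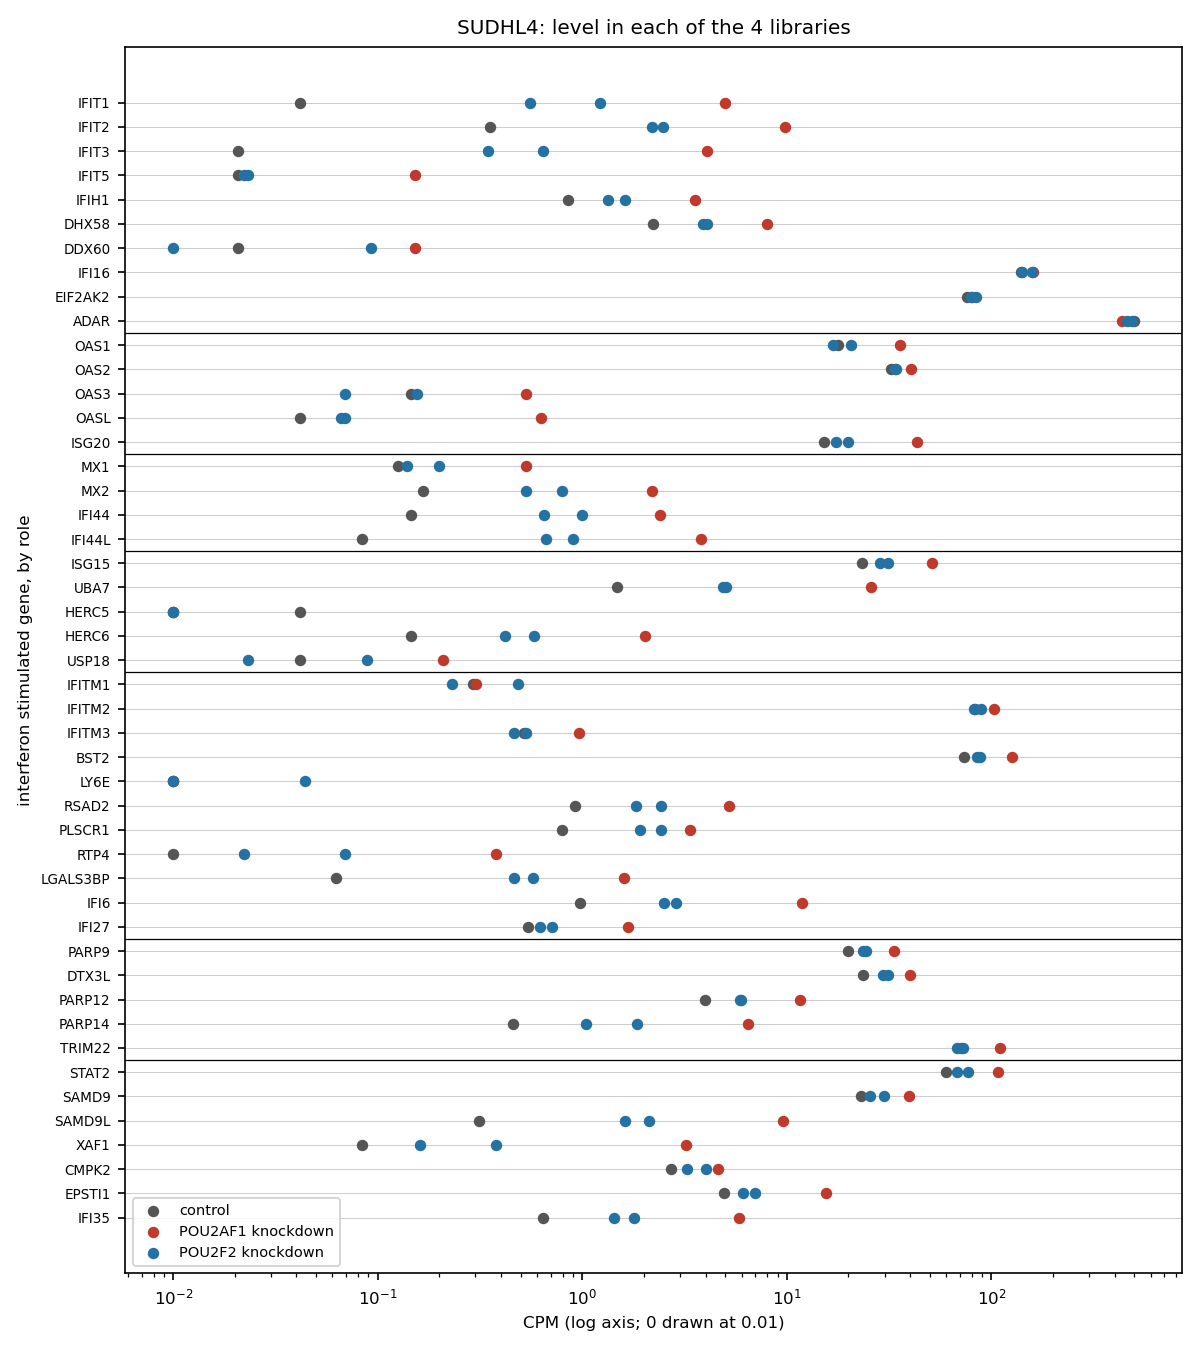
Level of the 47 genes in each of the 4 SUDHL4 libraries, in CPM on a log axis (0 drawn at 0.01), with genes in rows by role. The POU2AF1 knockdown library is the highest in 42 of the 47, and the 2 POU2F2 knockdown libraries lie between it and the control in 35. Both counts include genes with very few reads.

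The genes that bind, sense or edit RNA held some of the largest changes: 5 of 10 rose. IFIT1, which binds viral RNA lacking cap methylation, stood at 0.0416 CPM in the control (2 reads), 5.01 in the POU2AF1 knockdown and 1.22 and 0.554 in the POU2F2 knockdown libraries. The ratio of POU2AF1 knockdown to control was 120.3 with a 95% counting interval of 33.0 to 999, which covers counting error only. IFIT3, its partner in the same complex, was at 0.0208 CPM (1 read) in the control, 4.06 under POU2AF1 knockdown and 0.642 and 0.346 under POU2F2 knockdown, a ratio of 195 (34.6 to 7741) for POU2AF1. All 3 knockdown libraries lay above the control for both genes. IFIT2 went from 0.354 CPM to 9.73 under POU2AF1 knockdown (4.79 ± 0.37, log2 ± SE, adjusted p = 2.15e-12) and stood at 2.48 and 2.19 under POU2F2 knockdown. The RNA sensors moved less: IFIH1 went from 0.853 to 3.55 CPM (2.07 ± 0.41, adjusted p = 0.000135), with 1.62 and 1.34 under POU2F2 knockdown. DHX58, the regulatory sensor LGP2, went from 2.21 to 7.95 CPM (1.87 ± 0.28, adjusted p = 1.58e-06), with 4.07 and 3.90 under POU2F2 knockdown. IFI16, EIF2AK2 and ADAR, the abundant members of the group, were not called. Their levels were 139, 76.2 and 498 CPM in the control and 159, 80.3 and 436 in the POU2AF1 knockdown, with 158 and 142, 84.01 and 79.7, and 488 and 460.0 in the POU2F2 knockdown libraries. IFIT5 and DDX60 had 8 reads or fewer in every library and were not tested.

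Of the oligoadenylate synthetases and the exonuclease ISG20, 4 of 5 rose. ISG20 went from 15.1 CPM in the control to 43.5 under POU2AF1 knockdown (1.54 ± 0.14, adjusted p = 8.67e-11), with 17.3 and 19.9 under POU2F2 knockdown. OAS1, which makes the second messenger of RNase L, went from 17.7 to 35.9 CPM (1.04 ± 0.14, adjusted p = 6.70e-07), while the POU2F2 knockdown libraries, at 20.5 and 16.8, lay on both sides of the control. OAS2 rose least, from 32.2 to 40.2 CPM (0.34 ± 0.12, adjusted p = 0.0224), with 33.98 and 33.8 under POU2F2 knockdown. On the TPM scale its direction turned, from 12.2 TPM in the control to 10.0 under POU2AF1 knockdown, while the other 34 of the 35 genes called were higher in TPM too. OASL, a synthetase-like protein without that activity, rested on 2 control reads: 0.0416 CPM against 0.626 under POU2AF1 knockdown, a ratio of 15.0 (95% counting interval 3.85 to 129), with 0.0664 and 0.0692 under POU2F2 knockdown. OAS3 was not called, at 0.146 CPM in the control, 0.531 under POU2AF1 knockdown and 0.155 and 0.0692 under POU2F2 knockdown.

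Among the MX and IFI44 genes, 3 of 4 rose. MX2, a GTPase that restricts retroviruses at the nuclear pore, went from 0.167 to 2.20 CPM (3.72 ± 0.59, adjusted p = 4.75e-06), with 0.797 and 0.531 under POU2F2 knockdown. IFI44 went from 0.146 to 2.41 CPM (4.04 ± 0.59, adjusted p = 1.28e-06), with 0.996 and 0.646 under POU2F2 knockdown. Its neighbour IFI44L went from 0.0832 to 3.81 CPM (5.49 ± 0.60, adjusted p = 5.35e-09), with 0.664 and 0.900 under POU2F2 knockdown. For these 3 genes the order of the libraries was the same: control lowest, both POU2F2 knockdown libraries in between, POU2AF1 knockdown highest. MX1, at 0.125 CPM in the control, 0.531 under POU2AF1 knockdown and 0.199 and 0.138 under POU2F2 knockdown, was not called.

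The genes of ISG15 conjugation rose in 3 of 5 cases. ISG15 itself went from 23.3 to 51.2 CPM (1.15 ± 0.12, adjusted p = 2.48e-09), with 31.2 and 28.4 under POU2F2 knockdown. UBA7, the enzyme that activates ISG15, had the smallest adjusted p of its group: 1.48 CPM in the control, 25.6 under POU2AF1 knockdown (4.13 ± 0.23, adjusted p = 1.98e-16) and 4.89 and 5.03 under POU2F2 knockdown. HERC6, a HECT domain ubiquitin ligase, went from 0.146 to 2.03 CPM (3.79 ± 0.61, adjusted p = 6.45e-06), with 0.421 and 0.577 under POU2F2 knockdown. Its neighbour HERC5, the ligase that attaches ISG15 in human cells, had 2 reads in the control and none in the other libraries, and the ISG15 protease gene USP18 had 1 to 11 reads. Neither was tested.

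The membrane and secreted proteins rose in 8 of 11 cases. IFI6, a small membrane protein that opposes cell death, went from 0.978 to 11.8 CPM (3.61 ± 0.30, adjusted p = 1.37e-11), with 2.86 and 2.52 under POU2F2 knockdown. RSAD2, which makes a chain-terminating nucleotide, went from 0.916 to 5.22 CPM (2.52 ± 0.38, adjusted p = 2.26e-06), with 2.44 and 1.82 under POU2F2 knockdown. PLSCR1, a phospholipid scramblase, went from 0.791 to 3.36 CPM (2.10 ± 0.40, adjusted p = 8.48e-05), with 2.41 and 1.92 under POU2F2 knockdown. In each of these the POU2F2 knockdown libraries lay between the others. LGALS3BP, a secreted galectin-binding glycoprotein, had 3 control reads: 0.0624 CPM against 1.59 under POU2AF1 knockdown, a ratio of 25.5 (95% counting interval 8.44 to 126), and 0.576 and 0.462 under POU2F2 knockdown. RTP4, a receptor transporter, had no control read and 0.379 CPM under POU2AF1 knockdown (20 reads), at least 6.08-fold higher than a floor of 3 reads (the lower 95% counting limit of the ratio was 4.50), with 0.0221 and 0.0692 under POU2F2 knockdown (1 and 3 reads). BST2, already abundant, went from 73.6 to 126 CPM (0.80 ± 0.10, adjusted p = 1.32e-07), with 88.3 and 84.9 under POU2F2 knockdown. IFI27 went from 0.541 to 1.67 CPM (1.64 ± 0.51, adjusted p = 0.0104) and IFITM2 from 82.95 to 103 (0.33 ± 0.10, adjusted p = 0.0122). Under POU2F2 knockdown these stood at 0.708 and 0.623 CPM for IFI27 and 88.5 and 82.5 for IFITM2. IFITM1 and IFITM3 were not called and LY6E, with 2 reads or fewer, was not tested.

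All 5 genes of ADP-ribosylation and ubiquitin transfer rose. PARP14 went from 0.458 to 6.45 CPM (3.83 ± 0.44, adjusted p = 8.49e-08), with 1.86 and 1.04 under POU2F2 knockdown. PARP12, an ADP-ribosyltransferase found at the Golgi and in stress granules, went from 3.995 to 11.7 CPM (1.56 ± 0.22, adjusted p = 9.14e-07), with 5.89 and 5.95 under POU2F2 knockdown. The partners PARP9 and DTX3L moved by like amounts: PARP9 from 20.00 to 33.5 CPM (0.76 ± 0.13, adjusted p = 1.40e-05) and DTX3L from 23.5 to 39.97 (0.79 ± 0.12, adjusted p = 3.89e-06). Under POU2F2 knockdown they stood at 24.4 and 23.5 CPM for PARP9 and 31.3 and 29.4 for DTX3L. TRIM22 went from 70.8 to 111 CPM (0.66 ± 0.10, adjusted p = 4.33e-06), and its POU2F2 knockdown libraries, at 68.1 and 72.5, lay on both sides of the control.

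The 7 remaining genes all rose. STAT2, the ISGF3 subunit on the list, went from 60.2 to 108 CPM (0.86 ± 0.11, adjusted p = 1.18e-07), with 68.2 and 76.9 under POU2F2 knockdown. SAMD9L, from 0.312 to 9.62 CPM (4.95 ± 0.40, adjusted p = 4.10e-12), moved further than its neighbour SAMD9, from 23.02 to 39.5 (0.80 ± 0.13, adjusted p = 6.95e-06). Under POU2F2 knockdown SAMD9L stood at 2.12 and 1.61 CPM and SAMD9 at 29.8 and 25.5. XAF1, which binds the apoptosis inhibitor XIAP, went from 0.0832 (4 reads) to 3.21 CPM (5.24 ± 0.66, adjusted p = 1.29e-07), with 0.376 and 0.162 under POU2F2 knockdown. IFI35, which dimerises with NMI, went from 0.645 to 5.80 CPM (3.18 ± 0.40, adjusted p = 7.92e-08), with 1.79 and 1.43 under POU2F2 knockdown. EPSTI1 went from 4.93 to 15.5 CPM (1.67 ± 0.21, adjusted p = 6.04e-08) and CMPK2 from 2.73 to 4.59 (0.77 ± 0.30, adjusted p = 0.0442). Their POU2F2 knockdown libraries stood at 6.13 and 6.97 CPM for EPSTI1 and 4.01 and 3.25 for CMPK2, above the control and below POU2AF1 knockdown.

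Repression of POU2F2 in SUDHL4 went with a smaller movement of part of the set. In the fit of the line 18 of the 47 genes rose and none fell, where 4.79% of all genes tested rose, with a median log2 change of 0.53 over the members tested. All 18 were among the 35 above, but both comparisons use the same control library, so this is no independent evidence. The genes were IFIT1, IFIT2, IFIT3 and DHX58 of the RNA-binding group, MX2, IFI44 and IFI44L, ISG15 and UBA7, IFI6, RSAD2, PLSCR1 and LGALS3BP, DTX3L and PARP14, and STAT2, SAMD9L and IFI35. The changes were 1.78 ± 0.21 for UBA7 (log2 ± SE, adjusted p = 2.08e-07), 2.75 ± 0.36 for IFIT2 (adjusted p = 1.10e-06) and 2.61 ± 0.38 for SAMD9L (adjusted p = 9.49e-06). At the low end STAT2 changed by 0.30 ± 0.10 (adjusted p = 0.0466) and ISG15 by 0.39 ± 0.11 (adjusted p = 0.022). None of the 5 oligoadenylate synthetase and exonuclease genes was called. In the fit of all 22 libraries edgeR called no gene of the list, with or without the series block, where 0.518% and 0.0529% of all genes rose, and 16 and 12 listed genes had an unadjusted p below 0.05. DESeq2 on the SUDHL4 libraries called 5.

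The knockdowns were also set against each other in SUDHL4, a comparison added after the data were seen. POU2AF1 knockdown was higher in 33 of the 47 genes, where 12.4% of all genes tested were. Both POU2F2 knockdown libraries lay above the control in 36 of the 47 and between control and POU2AF1 knockdown in 35. Of all genes with 10 or more reads in a library of the line, 33.5% and 21.7% did. The 47 were counted without that read limit: IFIT5, counted in both, had 1 read in the control and in each POU2F2 knockdown library. In the fit of all libraries 3 were higher under POU2AF1 knockdown, where 0.159% of all genes were. With the series block 16 were, where 3.36% of all genes were. The labels give no protein levels, so the depth of repression can be compared only as RNA: 442 CPM of POU2AF1 in the control against 79.8 in its knockdown, and 330.2 CPM of POU2F2 against 43.5 and 55.3 in its knockdown libraries. POU2F2 itself was higher under POU2AF1 knockdown, at 496 CPM (0.61 ± 0.15, adjusted p = 0.00809), but not on the TPM scale, at 114.7 TPM against 124.7 in the control.

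Upstream of the set, interferon genes themselves were near the limit of detection. None of 21 ligand genes could be tested, no SUDHL4 library held more than 2 reads of any of them, and IFNB1 had none. Over OCI-Ly7 libraries the most was 6 reads of IFNA5, and IFNB1 reached 3. In SUDHL4 under POU2AF1 knockdown, 7 of 12 genes for receptors, JAK kinases and STATs rose and 1 fell. Of all genes tested, 18.0% rose and 18.8% fell. IFNGR1, a chain of the interferon gamma receptor, went from 19.1 to 78.7 CPM (2.06 ± 0.12, adjusted p = 6.16e-15), and the ISGF3 subunit IRF9 from 7.97 to 23.9 (1.60 ± 0.17, adjusted p = 1.43e-09). The receptor chain IFNAR1 went from 35.8 to 43.1 CPM (0.29 ± 0.12, adjusted p = 0.0484), and IFNAR2, from 55.1 to 46.8, was not called. Of 7 interferon regulatory factors 5 rose and 1 fell, where 18.8% of all genes tested fell. IRF7, itself induced by interferon, went from 3.83 to 20.4 CPM (2.43 ± 0.20, adjusted p = 9.90e-12), with 6.26 and 6.78 under POU2F2 knockdown.

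Sensors and adaptors outside the list rose in 7 of 16 cases and fell in 1, against the same 18.0% and 18.8% of all genes. TLR7, an endosomal receptor for single-stranded RNA, changed by 3.49 ± 0.41 (log2 ± SE, adjusted p = 1.82e-08). Negative regulators rose in 4 of 9 cases and fell in 1, led by PTPN6, the phosphatase SHP-1, at 4.26 ± 0.15 (adjusted p = 3.10e-20). A further 43 interferon-induced genes not on the list gave 24 that rose and none that fell. Among them UBE2L6, the conjugating enzyme for ISG15, changed by 1.93 ± 0.15 (adjusted p = 3.92e-12). Under POU2F2 knockdown the counts were 2 risen of the 12 receptor and kinase genes, 3 risen and 1 fallen of the 7 regulatory factors, 4 risen of the 16 sensors, 2 risen and 1 fallen of the 9 negative regulators and 11 risen of the 43 others, where 4.79% of all genes tested rose and 2.56% fell.

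Some markers of cell types moved in SUDHL4 as well. The 7 B cell markers summed to 2380 CPM in the control, 5910 under POU2AF1 knockdown and 3520 to 4030 under POU2F2 knockdown. All 7 rose under POU2AF1 knockdown, where 18.0% of all genes tested rose and 18.8% fell. Germinal centre markers summed to 1690, 1160 and 1410 to 1450 CPM, and 2 of 7 rose and 3 fell. T and NK cell markers summed to 5.16, 32.0 and 15.3 to 18.4 CPM, and 5 of 12 rose: TRAC, CD3E, CD3G, CD5 and CD4. TRAC, the constant segment of the T cell receptor alpha chain, made up 27.1 of the 32.0 CPM and had 174 reads in the control and 1428 under POU2AF1 knockdown. CD3E had 54 and 136 reads, and CD5 6 and 48, while the defining T cell gene CD3D had no read in any SUDHL4 library. Myeloid and dendritic cell markers summed to 1.08, 3.24 and 1.52 to 1.99 CPM, and 2 of 12 rose, near the 18.0% of all genes. Of these, ITGAM had 6 reads in the control and 46 under POU2AF1 knockdown, and LILRA4 0 and 20. S100A8 and CLEC4C were at 0 in every SUDHL4 library. In OCI-Ly7 the sums were 27.6 to 44.8 CPM in control, 18.4 to 39.1 under POU2AF1 and 11.6 to 60.1 under POU2F2 knockdown for T and NK markers, and 15.9 to 46.4, 2.58 to 12.4 and 7.20 to 35.2 for myeloid markers. For germinal centre markers they were 744 to 898 CPM in control, 415 to 585 under POU2AF1 and 543 to 695 under POU2F2 knockdown. Neither knockdown overlapped with the controls there. The myeloid sums under POU2AF1 knockdown also lay wholly below the controls, and those under POU2F2 knockdown overlapped with them. For B cell markers the groups overlapped, at 2740 to 3990, 2670 to 3220 and 2730 to 4010 CPM. The mitochondrial share of the deposited SUDHL4 reads was 9.76% in the control, 12.7% and 12.8% in the files of POU2AF1 knockdown, and 14.0% and 10.3% under POU2F2 knockdown. The part of these movements in the rise of the interferon stimulated genes was not tested.

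In OCI-Ly7 the same repression gave small changes. With batch as a term, none of the 47 genes was called under POU2AF1 knockdown, where 0.796% of all genes tested were (39 of the 47 were tested, 6 of them had an unadjusted p below 0.05, and DESeq2 called 2). The median log2 change of those tested was 0.19. Within series, a fit with each labelled series mark as a block, 4 were called, where 4.89% of all genes were: IFIT3, DTX3L and PARP14 higher and ISG20 lower. The batch 1 libraries bear no series mark and were taken as 1 further block, with 4 POU2AF1 knockdown libraries against 1 control. The unmarked 48 h POU2F2 knockdown library was alone in its block. IFIT3 stood at 0.890, 1.20, 1.83 and 1.04 CPM in the 4 controls, at 1.31 to 5.75 (median 3.001) in the 6 POU2AF1 knockdown libraries and at 1.27 to 3.32 (median 2.44) in the 8 POU2F2 knockdown libraries. Its change was 1.66 (log2, within series, adjusted p = 0.0236), and over the settings tried its adjusted p ran from 0.00087 to 0.789. DTX3L stood at 3.52, 2.81, 5.95 and 5.94 CPM in controls, 5.18 to 11.8 (median 8.60) under POU2AF1 and 4.49 to 8.91 (median 6.04) under POU2F2 knockdown, a change of 0.93 (log2, within series, adjusted p = 0.0094) for POU2AF1. PARP14 stood at 16.6, 17.6, 29.7 and 29.5 CPM in controls, 25.6 to 48.6 (median 31.1) under POU2AF1 and 17.5 to 60.7 (median 31.9) under POU2F2 knockdown, a change of 0.73 (adjusted p = 0.045). For these 3 genes the knockdown and control libraries overlapped in level. ISG20 was at 134, 115, 125 and 136 CPM in controls, 85.5 to 103 (median 92.1) under POU2AF1 and 86.3 to 124 (median 114) under POU2F2 knockdown, a change of -0.45 (adjusted p = 0.0057).

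All 6 POU2AF1 knockdown libraries were below all controls for ISG20 and above them for RTP4, the only members of the 47 without overlap, where 2.77% of all genes with 10 or more reads in a library of the line had none. RTP4 stood at 0.0189, 0.167, 0.129 and 0.0652 CPM in controls and 0.189 to 0.745 (median 0.228) under POU2AF1 knockdown, a difference set at very low counts and largest in replicate 1. Without POU2AF1 knockdown replicate 1, the library rich in mitochondrial reads, 11 genes were called within series, where 9.33% of all genes were, 7 higher and 4 lower. Higher were DTX3L, IFIT3, IFITM1, IFITM2, PARP14, PARP9 and UBA7, and lower were ISG20, OAS1, STAT2 and TRIM22, named after their values were seen. IFIT3 then changed by 1.41 and ISG20 by -0.43 on the log2 scale. The changes of the 4 lower genes ran from -0.43 for ISG20 to -0.28 for TRIM22.

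**Figure D3:**
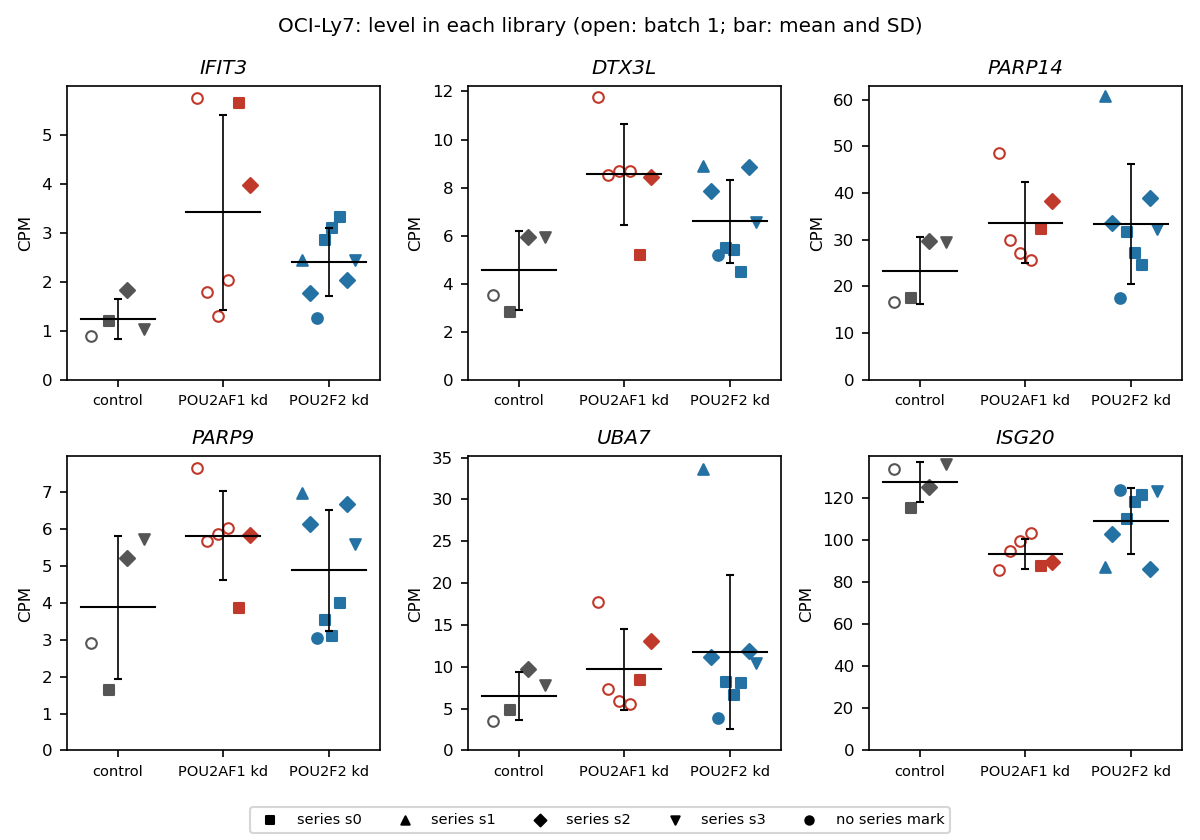
Level of 6 genes in each OCI-Ly7 library, in CPM, by group, with open symbols for batch 1, filled symbols for batch 2 shaped by series mark, and the mean with its SD as bars. The 6 POU2AF1 knockdown libraries lie below the 4 controls for ISG20, and the groups overlap for IFIT3, DTX3L, PARP14, PARP9 and UBA7.

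The genes that rose in SUDHL4 showed no shared movement of that size in OCI-Ly7, and apart from ISG20 and RTP4 the control and knockdown ranges of each gene that follows overlapped. UBA7 was at 3.54, 4.85, 9.78 and 7.86 CPM in controls, 5.57 to 17.7 (median 7.88) under POU2AF1 and 3.83 to 33.6 (median 9.32) under POU2F2 knockdown. The highest of these was the lone POU2F2 knockdown library of its series mark. ISG15 was at 27.9, 11.2, 14.9 and 12.9 CPM in controls, 10.7 to 27.9 (median 18.99) under POU2AF1 and 6.71 to 25.9 (median 14.1) under POU2F2 knockdown. HERC6 was low throughout, at 0.114, 0.0669, 0.289 and 0.359 CPM in controls, 0.136 to 0.608 (median 0.319) under POU2AF1 and 0.219 to 0.529 (median 0.289) under POU2F2 knockdown. Control replicate 1 was the highest control for ISG15 and among the lower ones for UBA7 and HERC6. PARP9 was at 2.92, 1.64, 5.21 and 5.74 CPM in controls, 3.87 to 7.66 (median 5.84) under POU2AF1 and 3.04 to 6.96 (median 4.79) under POU2F2 knockdown. PARP12 varied little, at 10.2, 9.87, 9.29 and 7.60 CPM in controls, 8.77 to 12.9 (median 10.3) under POU2AF1 and 7.28 to 12.6 (median 10.7) under POU2F2 knockdown.

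Among the RNA-binding genes, IFIT2 was at 0.530, 0.903, 1.54 and 1.86 CPM in controls, 0.530 to 1.89 (median 0.988) under POU2AF1 and 0.854 to 3.79 (median 1.51) under POU2F2 knockdown. DHX58 was at 8.35, 7.79, 15.9 and 14.2 CPM in controls, 7.26 to 16.3 (median 8.88) under POU2AF1 and 8.80 to 23.7 (median 13.5) under POU2F2 knockdown. Both were lower in control replicates 1 and 7 than in 8 and 9. IFIH1, high at baseline in this line, was at 20.7, 23.99, 18.1 and 19.6 CPM in controls, 20.9 to 26.5 (median 23.8) under POU2AF1 and 19.02 to 23.1 (median 21.2) under POU2F2 knockdown. The abundant IFI16 was at 341, 416, 366 and 366 CPM in controls, 285 to 391 (median 340.5) under POU2AF1 and 317 to 440.0 (median 410.4) under POU2F2 knockdown. ADAR was at 383, 489, 389.7 and 353 CPM in controls, 353 to 528 (median 374) under POU2AF1 and 322 to 484 (median 400.4) under POU2F2 knockdown. These 3 kept a narrow range over the libraries. IFIT1, the gene with one of the largest ratios in SUDHL4, was at 0.0379, 0.100, 0 and 0.0652 CPM in controls, 0.0221 to 0.258 (median 0.184) under POU2AF1 and 0 to 0.150 (median 0.0749) under POU2F2 knockdown, too low to be tested.

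The oligoadenylate synthetases varied between libraries of 1 group. OAS1 was at 43.7, 61.8, 71.9 and 77.2 CPM in controls, 25.99 to 67.5 (median 42.7) under POU2AF1 and 38.1 to 79.7 (median 64.00) under POU2F2 knockdown. OAS2 was at 79.2, 128, 119 and 108 CPM in controls, 48.8 to 156 (median 91.4) under POU2AF1 and 75.5 to 145 (median 129.8) under POU2F2 knockdown. For both, POU2AF1 knockdown replicates 2, 3 and 4, all of batch 1, were the lowest libraries of the line. The same 3 libraries were the lowest for the ligase TRIM22, at 38.4, 53.3, 59.9 and 57.9 CPM in controls, 26.4 to 57.2 (median 37.7) under POU2AF1 and 36.7 to 86.02 (median 60.1) under POU2F2 knockdown. They were also the lowest for STAT2, at 44.6, 63.8, 96.8 and 107 CPM in controls, 30.2 to 92.04 (median 38.4) under POU2AF1 and 41.3 to 123 (median 93.7) under POU2F2 knockdown. MX2 was at 2.86, 3.11, 4.53 and 4.24 CPM in controls, 1.17 to 4.99 (median 2.76) under POU2AF1 and 2.61 to 5.75 (median 4.12) under POU2F2 knockdown. IFI44, IFI44L, OASL, CMPK2 and RSAD2, all of which rose in SUDHL4, were at or near 0 in this line. The highest of the 18 libraries reached 0.177 CPM for IFI44, 0.0568 for IFI44L, 0.329 for OASL, 0.0657 for CMPK2 and 0.0608 for RSAD2.

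Of the membrane and secreted proteins, BST2 was at 106, 101, 90.8 and 72.9 CPM in controls, 77.5 to 111 (median 89.1) under POU2AF1 and 67.7 to 116 (median 93.04) under POU2F2 knockdown. IFITM2 was at 4.01, 3.18, 13.2 and 10.6 CPM in controls, 5.15 to 17.6 (median 7.45) under POU2AF1 and 4.12 to 27.9 (median 9.86) under POU2F2 knockdown. PLSCR1 was at 4.24, 4.01, 2.35 and 2.35 CPM in controls, 2.27 to 3.41 (median 3.19) under POU2AF1 and 1.15 to 4.73 (median 3.14) under POU2F2 knockdown. The controls differed among themselves: IFITM2 was lower, and PLSCR1 higher, in control replicates 1 and 7 than in 8 and 9. IFI6 was at 2.75, 1.47, 2.99 and 1.96 CPM in controls, 1.87 to 6.38 (median 2.96) under POU2AF1 and 1.92 to 3.17 (median 2.54) under POU2F2 knockdown. LGALS3BP was at 0.170, 0.0669, 0.707 and 0.620 CPM in controls, 0.442 to 1.14 (median 0.541) under POU2AF1 and 0.122 to 0.565 (median 0.343) under POU2F2 knockdown. For both of these POU2AF1 knockdown replicate 1 was the highest library of the line. IFI27 was at 0.435, 0.167, 0.354 and 0.424 CPM in controls, 0.239 to 0.539 (median 0.385) under POU2AF1 and 0.336 to 0.626 (median 0.495) under POU2F2 knockdown.

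The restriction factor SAMD9 was at 28.7, 28.03, 20.8 and 23.2 CPM in controls, 22.8 to 37.7 (median 23.7) under POU2AF1 and 21.5 to 29.8 (median 25.6) under POU2F2 knockdown. Its neighbour SAMD9L was at 12.9, 12.3, 16.4 and 17.4 CPM in controls, 9.15 to 27.03 (median 12.3) under POU2AF1 and 13.7 to 31.98 (median 19.3) under POU2F2 knockdown. Neither was called in OCI-Ly7, while SAMD9L had the larger change of the pair in SUDHL4. XAF1 was at 0.114, 0.134, 0.289 and 0.228 CPM in controls, 0.0442 to 1.14 (median 0.386) under POU2AF1 and 0.0438 to 0.661 (median 0.276) under POU2F2 knockdown. EPSTI1 was at 0.303, 0.502, 0.514 and 0.391 CPM in controls, 0.351 to 0.798 (median 0.502) under POU2AF1 and 0.219 to 0.778 (median 0.643) under POU2F2 knockdown. IFI35 was at 2.71, 3.04, 3.86 and 3.56 CPM in controls, 2.48 to 3.80 (median 2.81) under POU2AF1 and 3.28 to 7.03 (median 4.36) under POU2F2 knockdown. For IFI35 the highest library was again the lone POU2F2 knockdown library of its series mark.

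Under POU2F2 knockdown in OCI-Ly7 none of the 47 genes was called, where 0.0% of all genes tested were with batch as a term and 0.0674% within series. Unadjusted, 2 of the genes tested (DTX3L and IFIT3) had a p below 0.05, and DESeq2 called 0. Without POU2AF1 knockdown replicate 1, whose spread enters the fit, 1 was called within series, where 0.692% of all genes were: DTX3L, by 0.65 (log2, adjusted p = 0.0473). No member was called between POU2AF1 and POU2F2 knockdown in the fit with batch. Of the 108 genes of the pathway lists, 77 were tested and 4 were called under POU2AF1 knockdown, where 0.796% of all genes tested were: IRF8 was lower (-1.21 ± 0.14, log2 ± SE, adjusted p = 0.000213), and IRF2BP2, PTPN1 and SP110 rose. Under POU2F2 knockdown none of the pathway genes was called.

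**Figure D4:**
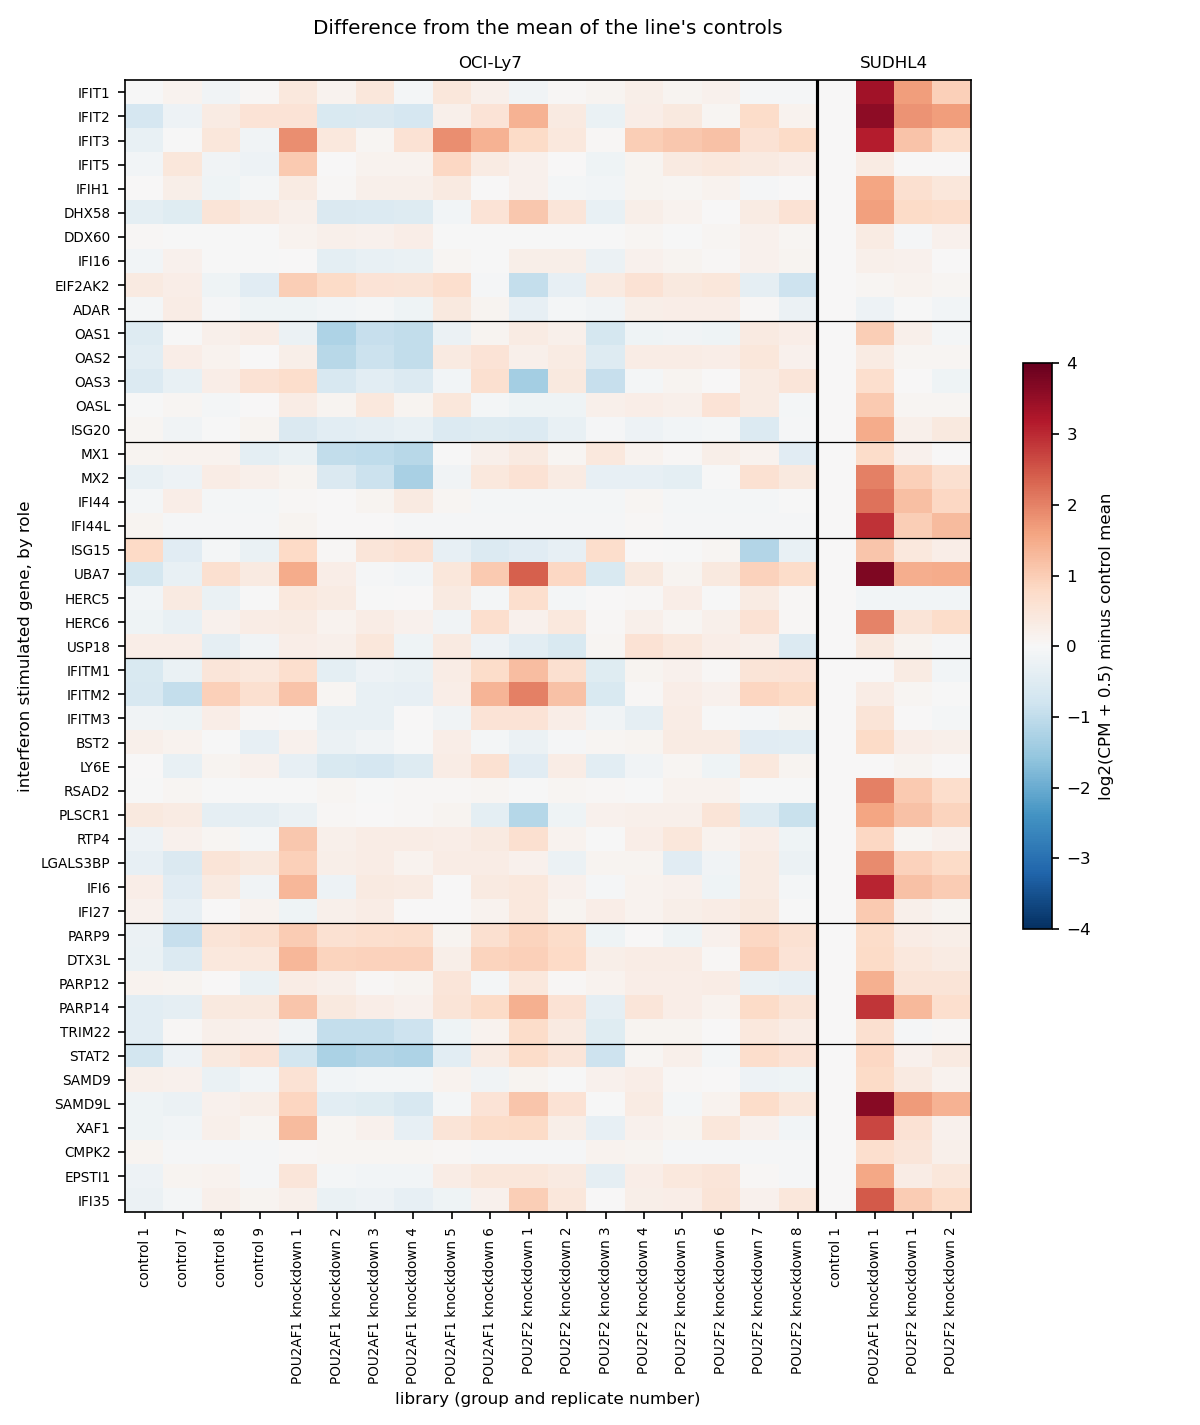
Difference of each library from the mean of its line's controls, as log2(CPM + 0.5), for the 47 genes (rows, by role) in 22 libraries (columns). In SUDHL4 the POU2AF1 knockdown column is above the control for 44 genes, whereas among the OCI-Ly7 columns POU2AF1 knockdown replicate 1 and POU2F2 knockdown replicate 1 have the most genes over 2-fold above, 10 and 7. Genes over 2-fold below number 3, 2 and 3 in POU2AF1 knockdown replicates 2, 3 and 4.

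Whether the response to POU2AF1 knockdown differed between the lines was tested as the difference of the changes, in the fit of all libraries. The test called 7 of the 47 genes, each with the larger change in SUDHL4, where 0.655% of all genes tested were called in that direction. They were IFIT3 (5.67, adjusted p = 0.034), SAMD9L (4.75, adjusted p = 0.0076), MX2 (3.80, adjusted p = 0.046), IFI6 (3.27, adjusted p = 0.032), IFI35 (3.17, adjusted p = 0.0052), ISG20 (2.02, adjusted p = 0.0011) and IFIH1 (1.85, adjusted p = 0.0022), as log2 SUDHL4 minus OCI-Ly7. The value of IFIT3 rests on 1 read in the SUDHL4 control. Among them ISG20 was called in opposite directions, higher in SUDHL4 and lower within series in OCI-Ly7. With the series mark as a block 19 were called in that direction, where 5.28% of all genes were. Within batch 1 alone 1 was, where 0.621% were, and without OCI-Ly7 control replicate 1, the only control of batch 1 there, 4 were, where 0.416% were. For POU2F2 knockdown edgeR called the difference between lines for none of the 47, and 7 had an unadjusted p below 0.05. Of all 18918 genes tested 2 were called, both with the lower change in SUDHL4. Line, medium and the single SUDHL4 libraries enter these differences together and cannot be told apart.

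**Figure D5:**
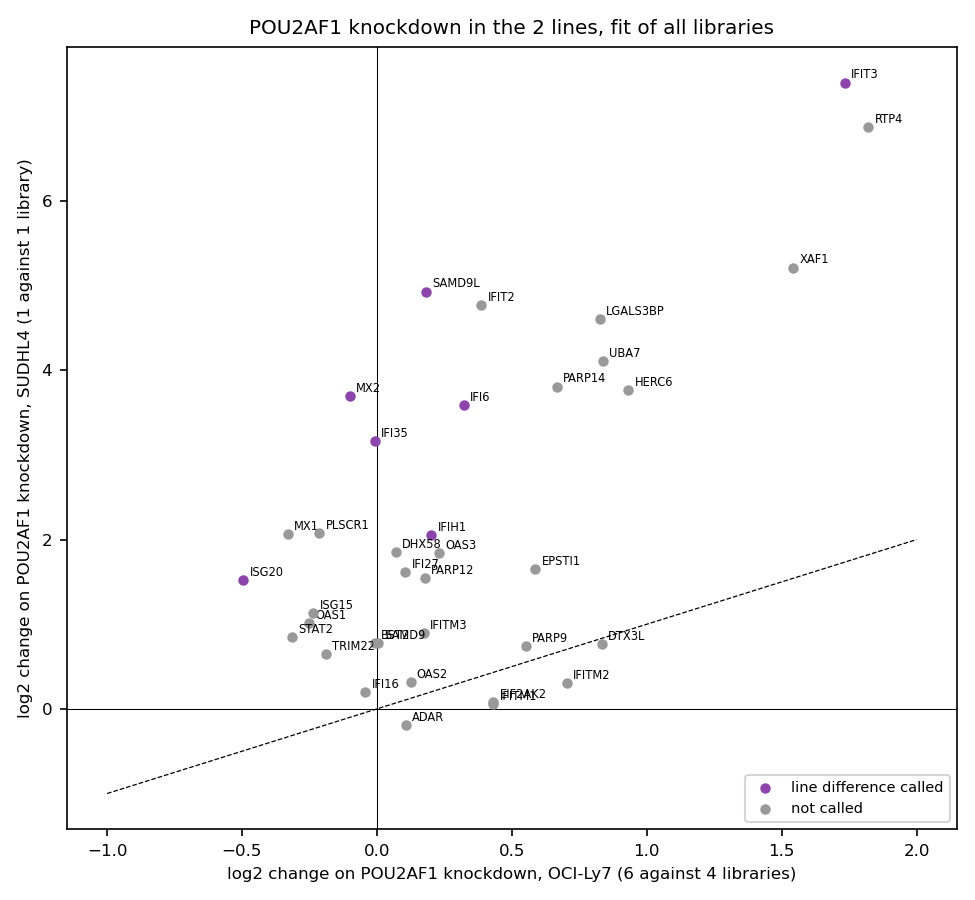
Change on POU2AF1 knockdown in OCI-Ly7 (across, 6 against 4 libraries) and SUDHL4 (up, 1 against 1 library), as log2 from the fit of all libraries, for 36 genes, with equal changes on the dashed line. The 7 genes whose difference between lines was called lie above the line, from IFIH1 (1.85) to IFIT3 (5.67).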

How the data were processed

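RNA of 26 deposited files was analysed. Reads were trimmed with fastp and quantified with Salmon 1.5.1 against GRCh38.p13, per the submitters' processing notes. The library type that was set in Salmon is not given in the sources used here. The authors deposited estimated counts and TPM per transcript, without bias options named. Here both were summed over the transcripts of each gene: 205964 of 227912 transcripts matched GENCODE release 29 by identifier, with 98.36% to 98.888% of the reads. Counts were rounded.

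Files of 1 group whose difference was near sampling noise (ratio 1.122 to 1.151 in 3 pairs, against 2.39 to 70.353 in 53 other pairs, with 1.5 set as the limit after they were seen) were merged. The third OCI-Ly7 control file repeated the sum of the first 2 and was left out. A file sum that agreed within 2 reads for 92.922% of 26871 genes was taken as a repeat.

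Genes were fitted in edgeR 4.0.16 under R 4.3.3, after TMM scaling and removal of low genes by filterByExpr at a count of 10, by the robust quasi-likelihood test. The lines were fitted apart, OCI-Ly7 with a term for batch, and together for the line comparisons. The series block replaced the batch term. In it all batch 1 libraries, which bear no series mark, formed 1 block, and the unmarked 48 h library formed its own. Calls were made below 0.05 after Benjamini-Hochberg adjustment across the whole table of genes tested. SE is the log2 change divided by the root of the test's F. CPM is scaled with TMM over all 22 libraries. DESeq2 1.42.0 was an alternative. Scripts were tested on simulated data. Depth was 24959865 to 53155548 reads per file.

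The listed genes, pathway lists and markers were chosen with earlier results of these data known. Named genes were, by a rule, those called in any of the 4 knockdown comparisons or among the 6 most abundant in the controls of a line, plus up to 3 per pathway list by smallest adjusted p and the defining genes IRF9, IRF7, IFNAR1 and IFNAR2. One further gene of the rule is not reported here. The comparison of POU2AF1 with POU2F2 knockdown, the series block in the fit of all libraries and the settings that leave out single libraries within series were added after the data were seen. Promoters were read from a RefSeq table of GRCh38.p14.

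The replicate numbers were not taken to pair the samples: the correlation of deviations between same-numbered libraries ran from -0.482 to 0.652.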

Additional observations from a re-analysis of the deposited data

Results flagged for a closer look

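Among 111 groups of 4 to 8 OCI-Ly7 libraries (37 named genes in 3 groups), 15 held 1 library far from the others by Dixon's criterion. Its share of about 1 in 20 by chance holds for normally distributed values. Where all other libraries of a group were at 0, any read is flagged by construction. The 15 therefore cannot be set against that share. In POU2AF1 knockdown replicate 1, the library with 25.8% mitochondrial reads, RTP4 stood at 0.745 CPM (next 0.256), LGALS3BP at 1.14 (0.545), IFI6 at 6.38 (3.01) and SAMD9 at 37.7 (27.4). In POU2F2 knockdown replicate 1, the lone library of its series mark, UBA7 stood at 33.6 CPM (next 11.9), IFI35 at 7.03 (4.88) and IFIT2 at 3.79 (2.19). POU2F2 knockdown replicate 3, labelled 48 h, was low for IFI16 at 317 CPM (next 383) and OAS2 at 75.5 (122). The others were single libraries at low counts: IFI44 at 0.0600 CPM and IFI44L at 0.0300 in POU2F2 knockdown replicate 4, IFI44L and CMPK2 at 0.0568 each in control replicate 1, and IFI44 at 0.134 and RSAD2 at 0.0335 in control replicate 7.

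The change on POU2AF1 knockdown differed between the lines, by a test of the difference itself, for 7 genes. As log2 SUDHL4 minus OCI-Ly7 the differences were 5.67 for IFIT3, 4.75 for SAMD9L, 3.80 for MX2, 3.27 for IFI6, 3.17 for IFI35, 2.02 for ISG20 and 1.85 for IFIH1. The SUDHL4 side of each rests on 1 library against 1.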

How the results depend on the processing

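Counts are listed genes called at an adjusted p below 0.05. Under POU2AF1 knockdown in SUDHL4 the count of 35 became 12 in the fit of all libraries, and 12 to 12 there when either POU2F2 knockdown library was left out. For POU2F2 knockdown the 18 became 0 in the fit of all libraries, 0 with the series block there, 0 to 0 with either POU2F2 knockdown library left out and 5 with DESeq2. Between the SUDHL4 knockdowns the 33 became 3 in the fit of all libraries, 16 with the series block, 18 with DESeq2 and 0 to 0 with either library left out. In OCI-Ly7 the 0 for POU2AF1 knockdown became 4 with the series block. It became 11 with that block and POU2AF1 knockdown replicate 1 left out, and 5 with POU2F2 knockdown replicate 1 left out instead. It was 1 without a low-count filter, 2 with DESeq2 and 2 with the 48 h POU2F2 library placed in batch 1. Without the 48 h knockdown libraries it was 1. Control replicate 1, whose reads the 48 h control file repeats, stayed in that fit. With single libraries left out it was 0 to 1 (IFIT3, without POU2AF1 knockdown replicate 1 or 3 or POU2F2 knockdown replicate 3). With the series block and POU2AF1 knockdown replicate 1 left out, POU2F2 knockdown gave 1 and the 2 knockdowns differed in 2; with single libraries left out both stayed at 0 to 0. The line difference for POU2AF1 knockdown, 7 in all, became 19 with the series block, 1 in batch 1 alone, and 4 to 10 with single libraries left out, the lowest without OCI-Ly7 control replicate 1 and the highest without POU2AF1 knockdown replicate 1; that for POU2F2 stayed at 0 to 0. The 25 differences between controls ran from 21 to 28 with single libraries left out. Of the alternatives for single genes 1136 were counted as unchanged, 319 lost the call and 24 gained it. Among genes called to begin with, none reversed direction. For IFIT3, DTX3L, PARP14 and ISG20 in OCI-Ly7, not called with batch as a term, a turn of direction was counted as unchanged. With the replicate number as a block, 4 genes were called under POU2AF1 knockdown in OCI-Ly7; the numbers do not pair the samples. The cause of these shifts was not tested. In SUDHL4 no fit of the line can leave out the single libraries, and ligand genes with at most 6 reads could not be tested at this depth.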
